A study of Mus musculus with 19 samples.

Results

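The 8 genes listed as mast cell proteases and markers, Tpsb2, Tpsab1, Cpa3, Cma1, Mcpt4, Ms4a2, Fcer1a and Hdc, were followed through ageing of the whole mouse ovary. They were taken from the deposited count table by gene symbol, 8 rows of 36172, and no symbol was shared by more than 1 row. The samples were ovaries of female mice of the inbred strain C57BL/6, with no other treatment or genotype in the labels, aged 3 months (5 libraries), 6 months (5), 9 months (5) and 12 months (4). Total RNA of the organ was sequenced with no sorting in the labels, so mast cells were read together with follicles, stroma, vessels and any tissue left attached. Whether the libraries of an age came from separate mice is not stated in the labels, and p-values therefore measure the spread between these libraries only, which may be technical.

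Mast cells are tissue-resident immune cells that store proteases, histamine and proteoglycans in granules and release them when triggered. IgE bound to the high-affinity receptor is the classical trigger, and a separate family of Mrgpr receptors answers to basic peptides. In mice, connective tissue mast cells carry the chymases Cma1 and Mcpt4, the tryptase Tpsb2 and carboxypeptidase A3 (Cpa3), while mucosal mast cells carry Mcpt1 and Mcpt2. In the ovary, mast cells are known from the stroma and the hilum, the region where vessels and nerves enter.

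The 4 granule proteases rose together with age, from 3 to 9, from 3 to 12 and from 6 to 9 months. Between 3 and 12 months Tpsb2 rose 4.47-fold, Cpa3 3.85-fold, Cma1 3.62-fold and Mcpt4 3.10-fold. Fcer1a, the ligand-binding chain of the IgE receptor, went from 0 to 4 estimated counts per library at 3 months to 11 to 26 at 12 months. With oviduct and hilum transcripts as a covariate, the 12 month calls of all these genes but Tpsb2 were lost. With connective tissue transcripts as a covariate, no gene was called from 3 to 9 or from 6 to 9 months by edgeR. Hdc, the enzyme that makes histamine, averaged 164 to 218 CPM (counts scaled to library size) across the ages and passed no test. Its level was 7.39 to 105 times that of Cpa3, and which cells made it was not tested. Tpsab1 was close to 0 and Ms4a2, the receptor's beta chain, was listed at 0 in all 19 libraries. In bulk RNA, a change in the number of mast cells and a change in RNA per mast cell cannot be told apart.

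**Figure D1:**
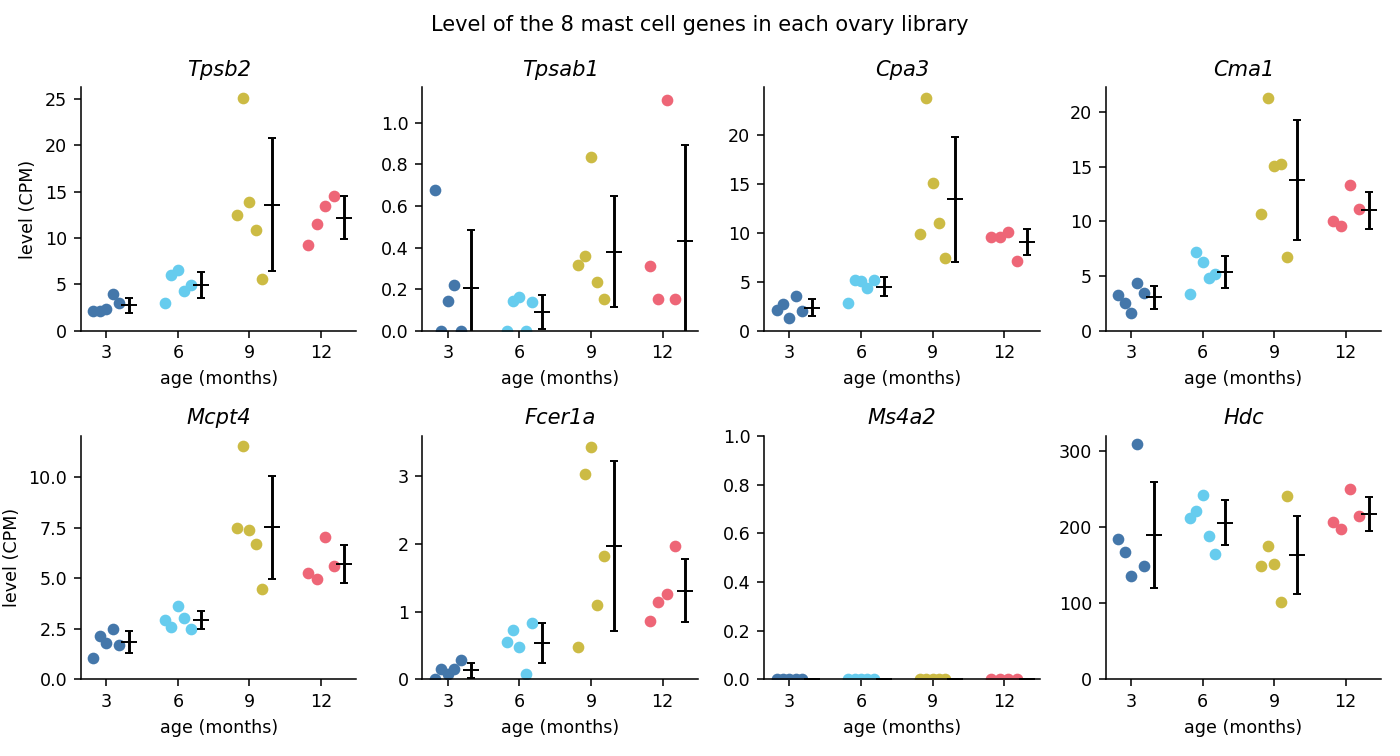
Level in CPM (vertical axis, linear, from 0, with its own scale for each gene) of the 8 genes against age in months. Each point is a library and the black bar is the mean with its SD (5, 5, 5 and 4 libraries). Tpsb2, Cpa3, Cma1 and Mcpt4 were low at 3 months and high at 9 and 12 months, Hdc showed no such step, and Ms4a2 was at 0 throughout.

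The tryptase Tpsb2 cleaves peptides after basic residues and is stored bound to heparin. At 3 months it read 2.10, 2.17, 2.37, 4.01 and 2.99 CPM, and at 6 months 3.01, 5.99, 6.57, 4.28 and 4.95 CPM. At 9 months it read 12.5, 25.1, 13.9, 10.9 and 5.55 CPM, and at 12 months 9.22, 11.5, 13.5 and 14.6 CPM. Every 9 and 12 month library lay above every 3 month library, and the 9 month libraries spread most widely, from replicate 5 at the bottom to replicate 2 at the top. The mean was 2.72 ± 0.80 CPM (SD, n = 5) at 3 months and 12.2 ± 2.35 CPM (SD, n = 4) at 12 months. By edgeR's quasi-likelihood test with Benjamini-Hochberg adjustment over 15518 genes the log2 change was 2.16 ± 0.33 (SE, adjusted p = 0.000621).

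Cpa3 trims C-terminal residues in the same granules. Its 3 month libraries read 2.10, 2.76, 1.29, 3.57 and 2.04 CPM and its 6 month libraries 2.83, 5.19, 5.05, 4.35 and 5.16 CPM. Its 9 month libraries read 9.85, 23.7, 15.05, 10.99 and 7.45 CPM and its 12 month libraries 9.53, 9.56, 10.1 and 7.10 CPM. All 9 month libraries exceeded all 3 and 6 month libraries, and 9 month replicate 2 was again the highest. The 12 month libraries were tightly grouped, with a mean of 9.07 ± 1.34 CPM (SD, n = 4) against 2.35 ± 0.86 CPM (SD, n = 5) at 3 months. The log2 change from 3 to 12 months was 1.94 ± 0.31 (SE, edgeR adjusted p = 0.000756).

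Cma1 is the mouse counterpart of the human chymase gene. It read 3.22, 2.54, 1.58, 4.37 and 3.49 CPM at 3 months and 3.38, 7.21, 6.25, 4.86 and 5.16 CPM at 6 months. It read 10.6, 21.3, 15.05, 15.3 and 6.77 CPM at 9 months and 10.002, 9.56, 13.3 and 11.2 CPM at 12 months. The 3 month libraries lay below all 9 and 12 month libraries, and 9 month replicate 5 lay inside the 6 month range. The log2 change from 3 to 12 months was 1.85 ± 0.30 (SE, edgeR adjusted p = 0.000823).

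Mcpt4, a chymase that cleaves fibronectin and thrombin, had the lowest level of the 4 proteases. Its libraries read 1.05, 2.17, 1.79, 2.48 and 1.67 CPM at 3 months and 2.92, 2.60, 3.61, 3.04 and 2.51 CPM at 6 months. They read 7.49, 11.5, 7.37, 6.70 and 4.49 CPM at 9 months and 5.24, 4.97, 7.04 and 5.59 CPM at 12 months. Mcpt4 was the only 1 of the 4 proteases whose 6 month libraries all lay above its 3 month libraries, and its 9 and 12 month libraries lay above both. Over all genes tested, 1.78% had every 6 month library above every 3 month library. The log2 change from 3 to 12 months was 1.63 ± 0.25 (SE, edgeR adjusted p = 0.000663).

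Fcer1a was read on 0, 2, 1, 2 and 4 estimated counts at 3 months and on 6, 10, 6, 1 and 12 at 6 months. At 9 months the counts were 6, 42, 45, 14 and 24, and at 12 months 11, 15, 17 and 26. The 3 month libraries stayed below all 9 and 12 month libraries, while 9 month replicate 1, at 0.47 CPM, lay inside the 6 month range of 0.072 to 0.84 CPM. The gene passed the low-count filter only through the older ages, so a difference was built into its being tested. Its log2 change from 3 to 12 months, 3.22 ± 0.68 (SE), is therefore a description, and it is left out of the counts of genes that rose. The proteases had at least 14 counts in every library.

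Hdc was abundant at every age. Its libraries read 185, 168, 136, 310 and 149 CPM at 3 months and 212, 222, 243, 189 and 165 CPM at 6 months. They read 149, 176, 152, 101 and 242 CPM at 9 months and 207, 198, 250.3 and 215 CPM at 12 months. All ages overlapped, the highest library was 3 month replicate 4 and the lowest was 9 month replicate 4. The log2 change from 3 to 12 months was 0.20 ± 0.23 (SE, edgeR adjusted p = 0.563), with a mean of 189.5 ± 69.9 CPM (SD, n = 5) at 3 months and of 218 ± 22.7 CPM (SD, n = 4) at 12 months. A missed threshold does not show that Hdc held the same level. Which cells of the ovary made the Hdc transcripts was not tested.

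Tpsab1 encodes the other tryptase of the pair and is annotated by RefSeq as a transcribed pseudogene in this strain's reference. It read between 0 and 1.11 CPM, was at 0 in 4 libraries, and totalled 68.9 estimated counts over the 19 libraries. It did not pass the low-count filter. Without the filter its log2 change from 3 to 12 months was 1.04 ± 0.87 (SE, edgeR adjusted p = 0.453). How alike the sequences of Tpsb2 and Tpsab1 are was not tested. Any reads that match both genes could be split by the authors' counting, so their separate values may be uncertain. Ms4a2 had 0 counts in each library, where 3 counts, the most that a count of 0 allows, would be 0.209 to 0.274 CPM (counting error only). A listed 0 can be a failed estimate: Ms4a3 beside it and 16134 genes in all (44.6%) were also listed at 0 throughout, while the neighbour Ms4a6d held 2078 counts.

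The low-count filter left the 4 proteases, Hdc and Fcer1a for testing. The 4 proteases rose between 3 and 12 months and Hdc did not pass, where 10.9% of all genes tested rose. From 3 to 9 months the 4 proteases rose too, against 11.3% of genes tested, with log2 changes of 2.32 ± 0.32 for Tpsb2, 2.51 ± 0.30 for Cpa3, 2.18 ± 0.29 for Cma1 and 2.03 ± 0.24 for Mcpt4 (SE). The edgeR adjusted p-values of these changes ran from 4.28e-05 to 0.00012. In the linear trend over all 4 ages the 4 proteases rose, against 14.7% of genes tested. Comparisons against 3 months share the 3 month libraries and are not independent of each other. The 4 proteases also had no overlap between 12 and 3 month libraries, where 6.72% of genes tested lay wholly above, nor between 9 and 3 month libraries, where the share was 5.52%.

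The steps between neighbouring ages are given next, and whether 1 step was larger than another was not tested. From 3 to 6 months the log2 change was 0.86 ± 0.32 for Tpsb2, 0.94 ± 0.30 for Cpa3, 0.82 ± 0.29 for Cma1 and 0.68 ± 0.25 for Mcpt4 (SE). By edgeR 0 of 6 passed after adjustment (adjusted p = 0.413 to 0.43 for these 4), 5 of 6 had an unadjusted p under 0.05, and DESeq2 and limma called 0. In this comparison 0.0193% of all genes tested were called. From 6 to 9 months the 4 proteases rose by edgeR, against 7.44% of genes tested, with log2 changes of 1.45 ± 0.30 for Tpsb2, 1.57 ± 0.28 for Cpa3, 1.36 ± 0.28 for Cma1 and 1.36 ± 0.24 for Mcpt4 (SE). With the connective tissue covariate described further on, 0 of these calls were left, and with the oviduct and hilum covariate 3, those other than Tpsb2. Fcer1a was at 1.94 ± 0.71 (log2, SE) from 3 to 6 months and at 1.87 ± 0.53 from 6 to 9 months, where a call by edgeR was lost by limma (adjusted p = 0.0762) and without 6 month replicate 4 (0.0505), 9 month replicate 2 (0.0526) or 9 month replicate 3 (0.0684). Cpa3 and Mcpt4 also had every 9 month library above every 6 month library, as did 4.36% of genes tested.

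From 9 to 12 months the 4 proteases and Fcer1a were lower by 0.16 to 0.59 on the log2 scale. None of the 6 passed by edgeR, DESeq2 or limma, 0 had an unadjusted p under 0.05, and 0% of all genes tested were called. Without 9 month replicate 2, Tpsb2 was higher at 12 than at 9 months by 0.18 (log2), so the direction of that last step rested on 1 library. The order of the ages for the 4 proteases was 3, 6, 12 and 9 months by mean, and the 2 oldest ages overlapped in every one of them.

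**Figure D2:**
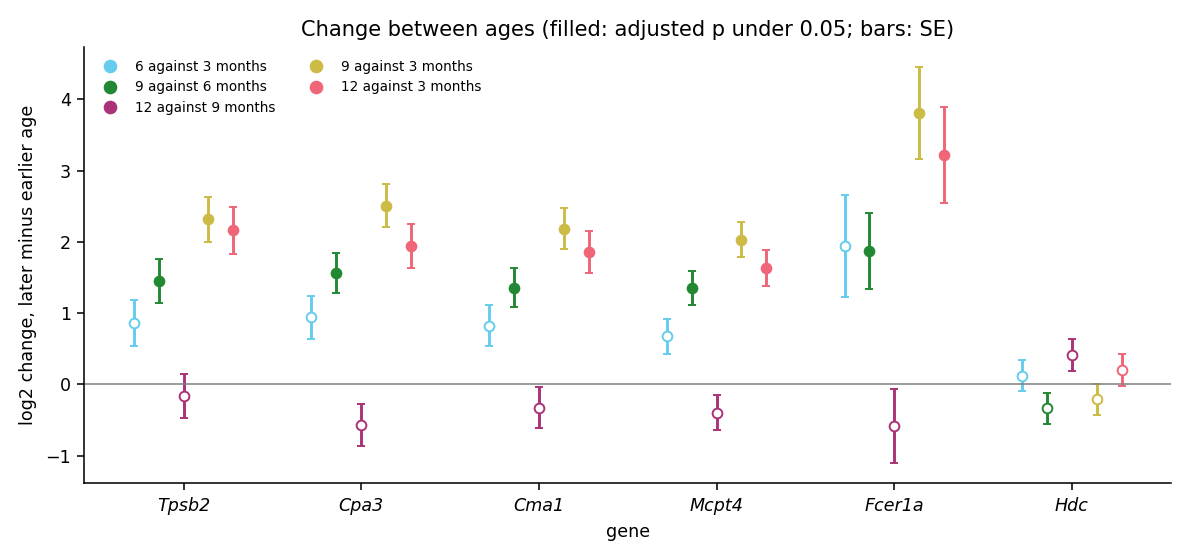
Log2 change, later minus earlier age (vertical axis), for the 6 genes tested, in 5 comparisons of ages (colours), with bars for the SE. Filled points passed an edgeR adjusted p of 0.05. The steps from 6 to 9 months were filled for the 4 proteases and Fcer1a, which was tested only through its older ages, those from 3 to 6 and from 9 to 12 months were open for all 6, and every Hdc point was open.

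The proteases moved up and down together over the libraries. Over the 19 libraries the ratio of Cma1 to Cpa3 CPM ran from 0.90 to 1.71 with a median of 1.19, and that of Tpsb2 to Cpa3 from 0.74 to 2.05 with a median of 1.06. The ratio of Mcpt4 to Cpa3 ran from 0.48 to 1.39, with a median of 0.78 at 3 months and 0.60 at 9 months. The log2 levels of Cpa3 and Cma1 had a Pearson correlation of 0.97 over the 19 libraries and of 0.84 after each age's mean was subtracted. Over the pairs of the 4 proteases the lowest values were 0.91 and 0.49, both for Cma1 and Mcpt4. Fcer1a followed Cpa3 at 0.84 over all libraries and 0.33 within ages, on far fewer counts. These correlations are descriptions: the points share library scaling, and over all ages they share the rise.

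Hdc did not follow the proteases, with a correlation to Cpa3 of -0.02 over the libraries and 0.24 within ages. The Hdc level was 60.8 to 105 times that of Cpa3 at 3 months, 32.1 to 74.8 times at 6 months, 7.39 to 32.4 times at 9 months and 20.8 to 30.3 times at 12 months. The groups of 3 and 12 months did not overlap in this ratio. Relative to Hdc, Tpsb2 was 3.80-fold, Cpa3 3.37-fold, Cma1 3.17-fold and Mcpt4 2.68-fold higher at 12 than at 3 months. Each of these 4 differences gave p = 0.0159 by a two-sided exact permutation test of 4 against 5 libraries (126 splits), which is the smallest p that design allows, and the value adjusted over the 8 ratio tests at 9 and 12 months was also 0.0159. The 4 ratios share the same Hdc values, and each protease alone already had no overlap between 3 and 12 months. The ratio tests therefore add no separate support.

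Levels between genes were compared per kilobase of exon, with lengths from GENCODE vM21. Hdc had a median of 26.3 CPM per kb at 3 months and 33.1 at 12 months. At 12 months the medians were 9.71 CPM per kb for Cma1, 7.85 for Tpsb2, 6.29 for Cpa3, 4.88 for Mcpt4 and 1.21 for Fcer1a. The ranges of Tpsb2 (5.78 to 9.14) and Cpa3 (4.68 to 6.65) overlapped at that age, as did those of Cpa3 and Mcpt4 (4.49 to 6.36). By these medians Hdc stood above every protease at every age, and the proteases above Fcer1a.

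**Figure D3:**
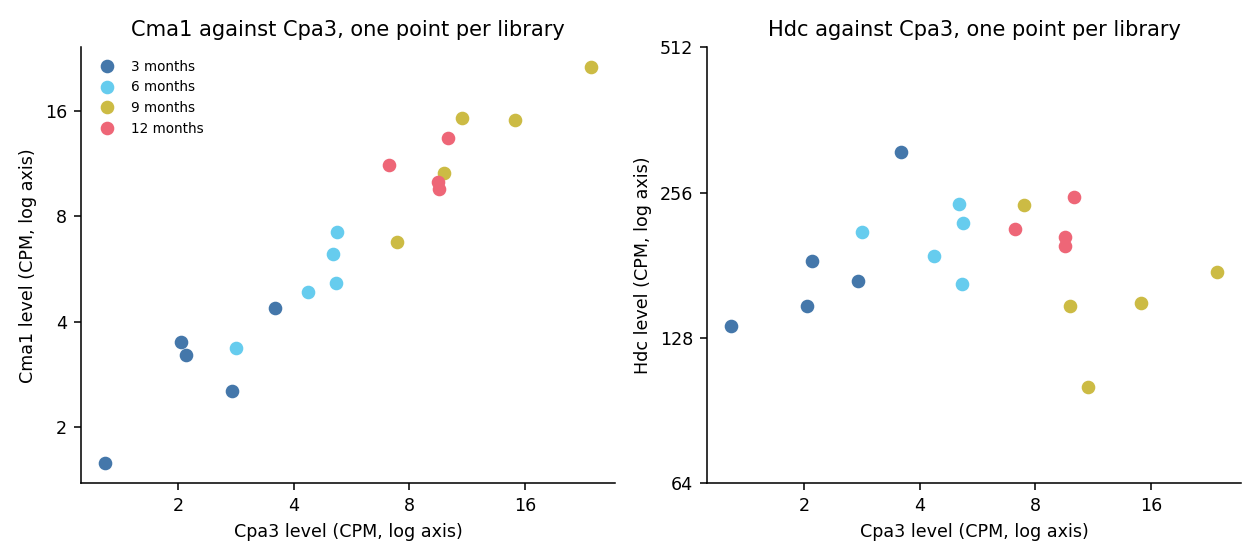
Level of Cma1 (left) and of Hdc (right) against the level of Cpa3, in CPM on log axes, with 1 point per library coloured by age. Cma1 rose with Cpa3 along a line from 3 month to 9 month libraries (Pearson correlation 0.97 on the log2 scale), and Hdc did not follow Cpa3 (-0.02).

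The chymases and the tryptases sit in known protease clusters, and reads there came from few of the neighbours. On GRCm38.p6, the assembly of mm10, Cma1 lies at chr14:55941451-55944675 and Mcpt4 at chr14:56059744-56062310, with 115 kb between them. From Cma1 to Gzmb, a granzyme at the other end of the cluster, 15 protein-coding genes were in the table, and 13 of them stayed below 1 CPM in every library. The protein-coding protease genes between Cma1 and Mcpt4 were nearly silent. Over all 19 libraries together, the mucosal Mcpt1 had 0.7 estimated counts and Mcpt2 had 8, while Mcpt9 had 2.5 and Cma2 had 4. Ctsg, cathepsin G, was listed at 0. Tpsb2 lies at chr17:25366308-25368096, with Tpsab1 20.7 kb away, and Tpsg1, a membrane-bound tryptase on its other side, never exceeded 0.59 CPM. Cpa3 lies at chr3:20215616-20242209, Fcer1a at chr1:173221269-173227232, Hdc at chr2:126593659-126624025 and Ms4a2 at chr19:11615517-11623790.

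The stretches just before the start sites of Cpa3, Mcpt4, Cma1 and Fcer1a, whose levels were higher at the older ages, and of Hdc, which passed no test, are shown to compare what they carry. A RefSeq window of 300 bases, 250 before the start and 50 after it, was found for 6 of the 8 genes, those other than Tpsb2 and Tpsab1. It was searched on both strands for a GATA core, either AGATAA or the variant of it that starts with T, which is TGATAA, and for the E-box of MITF type, which is CATGTG. No match of one overlapped a match of the other. GATA2 and MITF are factors known for driving mast cell genes. Each line gives the 250 bases upstream, 5′ to 3′ in the direction of the gene (minus strand of GRCm38.p6), with matches in capitals. The window of Hdc precedes a start site that lies inside the annotated gene and not at its outer end.
Cpa3 (chr3:20242182-20242431): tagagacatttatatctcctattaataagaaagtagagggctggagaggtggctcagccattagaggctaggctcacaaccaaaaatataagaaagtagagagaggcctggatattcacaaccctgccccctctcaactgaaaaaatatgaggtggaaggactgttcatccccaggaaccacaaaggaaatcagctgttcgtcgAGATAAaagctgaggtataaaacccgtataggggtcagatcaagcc
Mcpt4 (chr14:56062311-56062560): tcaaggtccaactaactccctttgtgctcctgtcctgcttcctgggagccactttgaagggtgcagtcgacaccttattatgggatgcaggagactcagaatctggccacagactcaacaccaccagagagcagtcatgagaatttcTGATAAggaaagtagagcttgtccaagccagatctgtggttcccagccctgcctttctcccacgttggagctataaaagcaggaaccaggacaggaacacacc
Cma1 (chr14:55944676-55944925): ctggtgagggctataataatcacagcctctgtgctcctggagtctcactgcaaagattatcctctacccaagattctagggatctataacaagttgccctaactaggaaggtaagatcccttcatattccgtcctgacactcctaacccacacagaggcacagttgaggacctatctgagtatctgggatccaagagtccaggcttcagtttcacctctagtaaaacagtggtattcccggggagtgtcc
Fcer1a (chr1:173227230-173227479): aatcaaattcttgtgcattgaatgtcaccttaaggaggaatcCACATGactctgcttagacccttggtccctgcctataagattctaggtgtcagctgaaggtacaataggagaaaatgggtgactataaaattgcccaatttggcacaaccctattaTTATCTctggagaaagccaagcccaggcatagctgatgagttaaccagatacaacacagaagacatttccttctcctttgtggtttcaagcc
Hdc (chr2:126618679-126618928): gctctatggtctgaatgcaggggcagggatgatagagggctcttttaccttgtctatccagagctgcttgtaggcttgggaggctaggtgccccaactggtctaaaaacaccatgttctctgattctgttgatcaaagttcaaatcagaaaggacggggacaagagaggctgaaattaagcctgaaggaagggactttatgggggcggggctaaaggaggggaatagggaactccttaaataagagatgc

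The GATA core was present in 4 of the 6 windows, against 18.6% of 32851 windows of the same length. It lay 46 bases before the start in Cpa3, 103 before it in Mcpt4 and 92 before it in Fcer1a, and Ms4a2, which was listed at 0, held 3 matches. The E-box was present in 1 of 6, Fcer1a, against 14.2% of windows. Cma1, which rose with Cpa3 and Mcpt4, and the Hdc window, at an inner start site, held neither. A match is a description of the letters and not of binding.

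Other mast cell genes moved in part. Of 20 genes listed, 15 were tested between 3 and 12 months, and 6 rose, 1 fell and 8 did not pass, with a median log2 change of 0.37 against 0.02 over all genes tested, of which 22.4% changed in either direction. Mrgprb1, a mast cell receptor of the Mrgpr family, averaged 0.41 ± 0.37 CPM (SD, n = 5) at 3 months and 1.71 ± 0.59 CPM (SD, n = 4) at 12 months, a log2 change of 2.04 ± 0.56 (SE). It had 0 to 13 counts in a 3 month library and 13 to 32 in a 12 month library, so it too was tested mainly through the older ages, and its change is a description although it is among the 6. Il1rl1, the receptor for IL-33, read 3.75, 3.14, 3.16, 3.13 and 2.69 CPM at 3 months and 4.69, 6.88, 7.86 and 5.74 CPM at 12 months. The 2 ages did not overlap, and Il1rl1 rose by 0.99 ± 0.24 on the log2 scale (SE, edgeR adjusted p = 0.00822). Its highest library was 9 month replicate 2 at 16.05 CPM, the same library that was highest for the proteases.

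The list also holds Hpgds and Lat2, which other leukocytes make too. Hpgds, which makes prostaglandin D2 and is also present in macrophages, rose by 1.26 ± 0.34 (edgeR adjusted p = 0.0145), a call lost without 12 month replicate 1 (adjusted p = 0.0559) or replicate 3 (0.0541). Lat2, an adaptor of the IgE receptor that B cells and macrophages also make, rose by 1.06 ± 0.29 (edgeR adjusted p = 0.0137), a call lost without 12 month replicate 2 (adjusted p = 0.0508). Slc18a2, which loads histamine and other amines into vesicles, was the gene that fell. Its mean at 3 months was 184 CPM, where that of Cpa3 was 2.35 CPM, and which cells made it was not tested. Slc18a2 read 198, 163, 218, 128 and 213 CPM at 3 months and 74.5, 57.3, 47.2 and 50.8 CPM at 12 months. No 12 month library reached the 3 month range, and the log2 change was -1.68 ± 0.29 (SE, edgeR adjusted p = 0.00156). Kit, the growth factor receptor that defines mast cells and that oocytes and theca also make, was named after its values were seen and had a log2 change of -0.14 ± 0.22 (adjusted p = 0.679).

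Signalling below the IgE receptor is shared with B cells, T cells and macrophages. Of 10 genes listed, all 10 were tested between 3 and 12 months, and 7 rose and 3 did not pass, with a median log2 change of 0.89, where 10.9% of all genes tested rose. Inpp5d, a phosphatase that restrains the pathway, rose by 0.92 ± 0.20 (edgeR adjusted p = 0.0045), Lyn, the kinase that starts it, by 0.70 ± 0.17 (0.00733) and Plcg2 by 0.96 ± 0.24 (0.0101). Lat, an adaptor that is also a T cell gene, rose by 2.33 ± 0.62 (edgeR adjusted p = 0.0133). Syk, the kinase that binds the receptor, rose by 0.87 ± 0.24 (edgeR adjusted p = 0.0172). Without 12 month replicate 2 the count fell to 3 of 10, with Lat (adjusted p = 0.138) and Syk (adjusted p = 0.072) among the calls lost. In that library Lat read 17.1 CPM, where the other 12 month libraries read 2.30 to 2.58 CPM.

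**Figure D4:**
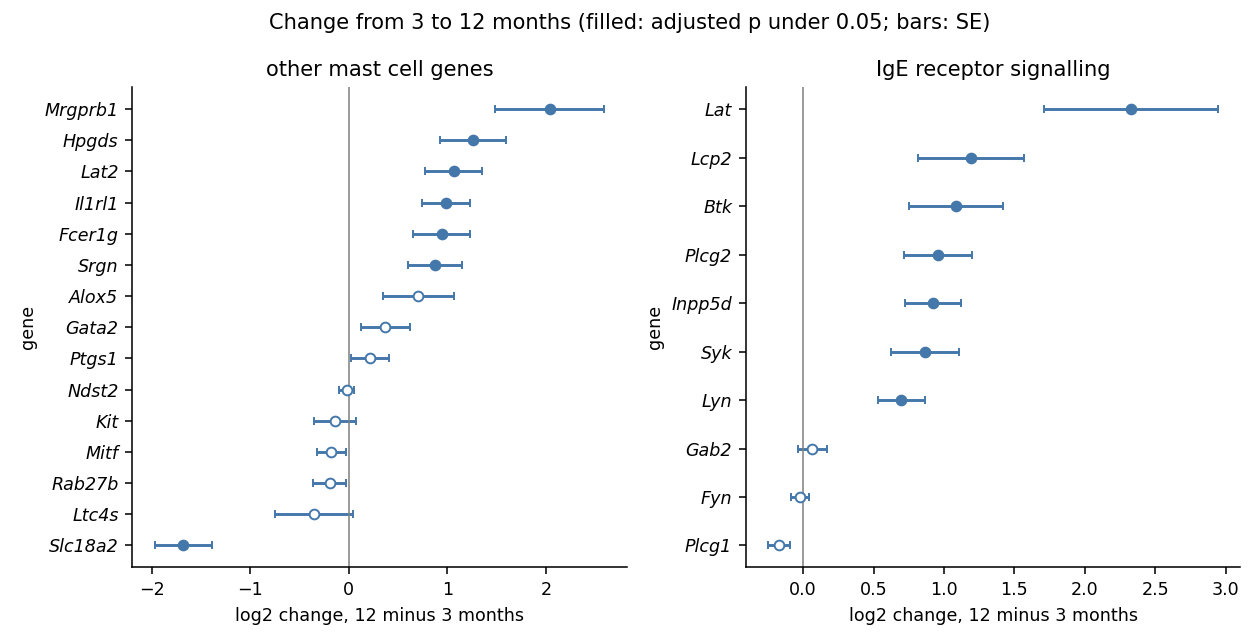
Log2 change from 3 to 12 months (horizontal axis) of the tested genes in the lists of other mast cell genes (left, 15 genes) and of signalling below the IgE receptor (right, 10 genes), with bars for the SE. Filled points passed an edgeR adjusted p of 0.05: 6 rose and 1, Slc18a2, fell on the left, and 7 rose on the right.

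Few of the listed genes that feed or restrain mast cells passed between 3 and 12 months. Of 8 ligands and growth factors, 6 were tested and 1 fell, where 22.4% of all genes tested changed in either direction. The gene was Kitl, the ligand of Kit, which read 250.5, 212, 253, 249.6 and 226 CPM at 3 months and 205, 173, 181 and 166 CPM at 12 months. The 2 ages did not overlap, and the log2 change was -0.39 ± 0.09 (SE, edgeR adjusted p = 0.00473). Oocytes and theca also make Kit, and which cells made Kitl or answered to it was not tested. In histamine handling 0 of 3 tested genes passed by edgeR, DESeq2 or limma, with 2 at an unadjusted p under 0.05. The receptor Hrh1 passed in the trend with age (edgeR adjusted p = 0.028). Of the protease targets and inhibitors 0 of 8 passed by edgeR, DESeq2 or limma, with 1 at an unadjusted p under 0.05. Agt, angiotensinogen, had a log2 change of -0.47 ± 0.24 (edgeR adjusted p = 0.172) and Ace one of -0.16 ± 0.14 (0.446). From 3 to 9 months 3 of the 8 rose, where 11.3% of all genes tested rose, and they are named after their values were seen. Serpina1a, an inhibitor of serine proteases, was at 0.32 ± 0.23 CPM (SD, n = 5) at 3 months. It was at 3.71, 7.99, 27.2, 2.18 and 0.68 CPM at 9 months (log2 change 4.65 ± 0.84, SE), and back at 0.27 ± 0.20 CPM (SD, n = 4) at 12 months. It passed the low-count filter only through the 9 month libraries, so its change is a description although it is among the 3. The 9 month libraries of Serpina1a thus spread widely. Slpi, another protease inhibitor, rose by 1.04 ± 0.36 (edgeR adjusted p = 0.0398) and Agtr1a, a receptor of angiotensin II, by 1.003 ± 0.35 (0.0402). Of the 6 ligands tested 1, the chemokine Cxcl12, rose from 3 to 9 months, against the same 11.3%, by 0.55 ± 0.12 (edgeR adjusted p = 0.00335).

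Defining markers of other granulocytes were at or near 0. The 4 basophil genes (Mcpt8, Prss34, Cd200r3 and Il4) summed to at most 0.94 CPM in any library, with Mcpt8 at 0 in 17 of 19 libraries, and none could be tested. Epx, which defines eosinophils, averaged 0 to 0.02 CPM at each age. Prg2, an eosinophil granule protein, was the only 1 of that list tested, on few reads, with 4 of 5 libraries at 0 at 3 months. It had 0 to 4 counts in any 3 or 6 month library, so it was tested only through the older ages. Its log2 change of 3.67 ± 1.13 (SE, edgeR adjusted p = 0.0263) is therefore a description. The edgeR call was lost without any 1 of 3 month replicates 1, 3, 4 and 5 or 12 month replicate 4 (adjusted p = 0.0525 to 0.0604). Of 7 neutrophil genes 2 were tested from 3 to 12 months and 1 rose, where 10.9% of all genes tested rose. The riser was Ltf, by 1.16 ± 0.29 (edgeR adjusted p = 0.0102), at 308 CPM at 3 months. The other 6 stayed below 1 CPM on average at each age. Epithelium of the female tract is known to make Ltf.

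Markers of connective tissue and of oviduct and hilum moved with age alongside the mast cell genes. The lists are named by tissue, and which cells made the transcripts was not tested. Of 4 adipocyte genes 0 rose from 3 to 12 months and 1 fell, where 22.4% of all genes tested changed. Their median log2 change was -1.26, with Lep at -1.85 ± 0.58 (SE, edgeR adjusted p = 0.0297). From 3 to 9 months 0 of the 4 passed, and from 6 to 9 months 1 rose, against 7.44% of genes tested. The 4 connective tissue genes (Col1a1, Col3a1, Dcn and Lum) summed to 2089 to 2560 CPM at 3 months, 2345 to 3063 at 6 months, 2958 to 4992 at 9 months and 2388 to 3369 at 12 months. All 4 rose from 3 to 9 months, where 11.3% of all genes tested rose, and 2 of 4, Col1a1 and Lum, from 3 to 12 months, where 10.9% did. The 4 oviduct and hilum genes (Ovgp1, Actg2, Des and Myh11) summed to 2205 to 3678 CPM at 3 months, 2799 to 4321 at 6 months, 3736 to 7705 at 9 months and 3229 to 6300.4 at 12 months. Of these, 4 of 4 rose from 3 to 9 months and 3 of 4, Ovgp1, Actg2 and Des, from 3 to 12 months, against the same 11.3% and 10.9%. Without 12 month replicate 3, Col1a1 (edgeR adjusted p = 0.0663), Actg2 (0.185) and Des (0.07) missed the threshold.

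With the mean log2 level of the connective tissue list or of the oviduct and hilum list as a covariate, calls were lost. These fits were chosen after the data were seen. With the oviduct and hilum covariate 1 of 6 genes was called from 3 to 12 months, Tpsb2 at 1.70 ± 0.37 (SE, edgeR adjusted p = 0.0379). In that fit Cpa3 was at 1.32 (adjusted p = 0.054), Cma1 at 1.27 (0.0572), Mcpt4 at 1.24 (0.0552) and Fcer1a at 3.17, while the 4 proteases were called from 3 to 9 months. With the connective tissue covariate the 4 proteases were called from 3 to 12 months, and 0 of 6 genes from 3 to 9 or from 6 to 9 months by edgeR. From 3 to 9 months Cpa3 was at 1.08 (adjusted p = 0.395). The 4 proteases and Fcer1a stayed higher in these fits, and calls over all genes fell as well, from 3475 to 127 (oviduct and hilum, 3 to 12 months) and from 3872 to 14 (connective tissue, 3 to 9 months). Of the 15 other mast cell genes tested from 3 to 12 months, 7 were called without a covariate, 1 with that of connective tissue and 0 with that of oviduct and hilum, and of the 10 signalling genes 7, 0 and 0. Each covariate moved with age itself, so what belongs to attached or connective tissue and what to age cannot be told apart.

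**Figure D5:**
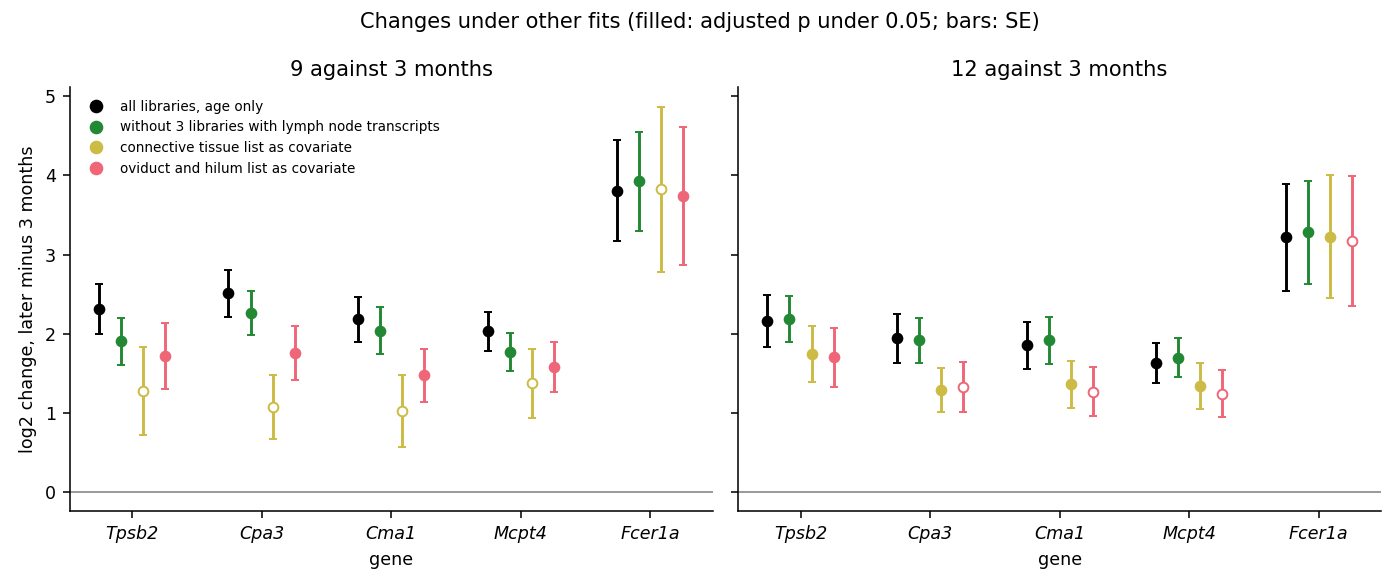
Log2 change from 3 months to 9 months (left) and to 12 months (right) for 5 genes under 4 edgeR fits (colours), with bars for the SE. Filled points passed an adjusted p of 0.05. All points lie above 0, with the connective tissue covariate leaving none filled at 9 months and the oviduct and hilum covariate leaving only Tpsb2 filled at 12 months.

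Lymph node and macrophage transcripts also rose. In 3 libraries (9 month replicates 1 and 2 and 12 month replicate 2) B cell and lymph node genes stood out, with Cd79a at 23.7, 32.4 and 50.2 CPM. The other 16 libraries reached 3.93 CPM at most. Of 6 lymph node genes 4 rose from 3 to 12 months, where 10.9% of all genes tested rose, 2 without those libraries and 1 without 12 month replicate 2. Without those 3 libraries the 4 proteases were still called from 3 to 9 and from 3 to 12 months, and Tpsb2 was at 1.91 and 2.19 on the log2 scale. Of 6 macrophage genes tested 4 rose from 3 to 12 months, against the same 10.9%, with Cd68 at 20.9 ± 7.1 CPM (SD, n = 5) at 3 months and 40.1 ± 8.5 CPM (SD, n = 4) at 12 months, and their part in the result was not tested.

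The genes most like the 4 proteases and Fcer1a in profile were found by correlating each tested gene with their mean log2 level. Over the 19 libraries these were Loxl1 (Pearson correlation 0.93), Gas1 (0.92), Shc1 (0.92), Gmip (0.91), Hmox1 (0.91), Ggt5 (0.91), Cdc42se1 (0.91) and Ssc5d (0.90). After each age's mean was subtracted they were Syngr1 (0.89), Caprin2 (0.88), Mnt (0.85), Nbl1 (0.83), Bdh2 (0.82), Lpp (0.82), Frem2 (0.81) and Otud7b (0.81). The 2 sets share no gene. Loxl1, a crosslinking enzyme of elastic fibres, changed by 0.65 from 3 to 12 months on the log2 scale (edgeR adjusted p = 0.00166), less than any of the 4 proteases. These rankings were read over many genes and few libraries and are a description.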

How the data were processed

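Libraries were grouped by age label, and their columns were found by title. The authors deposited estimated counts per gene (not whole numbers, per the values) for RefSeq gene models, per the file headers, on mm10, per the submitters' processing notes. The authors also deposited log2 values relative to the 3 month libraries. Aligner, counter, normalization and strand setting were not given in the sources used here, although the kit keeps strand, per the labels' protocols. Each table has 1 further column that matches no sample and was not used.

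Estimated counts were rounded and tested with edgeR 4.0.16 (quasi-likelihood, TMM scaling, all 19 libraries, low-count filter with minimum count 10, Benjamini-Hochberg over 15518 genes, threshold 0.05) in R 4.3.3. The trend is given over 9 months. Library totals ran from 10851519 to 14302207. Alternatives were DESeq2 1.42.0, limma 3.58.1 on the log2 values, other scaling and filters, fits of single pairs of ages, and fits without each library. Correlations used log2 CPM with a prior count of 2. The steps were tested on simulated data. Members and lists were chosen with earlier results of these data known. Named genes were the 8 members and, per list, up to 5 that passed at 12 months or along the trend by smallest p, otherwise the 2 with the highest mean. Of the lymph node list 1 gene is not reported here.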

Additional observations from a re-analysis of the deposited data

Results flagged for a closer look

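Of 28 sets of libraries, 1 for each gene and age with any reads, 2 held a library far from the others of its age by Dixon's test at 95%, and chance gives about 1 in 20. Hdc in 3 month replicate 4 was at 310 CPM, where the next library was at 185 CPM. Tpsab1 in 12 month replicate 3 was at 1.11 CPM, where the next library was at 0.31 CPM, on 15.4 estimated counts.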

How the results depend on the processing

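The counts of called genes given here include Fcer1a, which was tested only through the older ages and is no support. Under other normalizations, filters, tools and choices of samples, 5 of 6 genes were called from 3 to 9 months, from 3 to 12 months and in the trend, except 4 from 3 to 9 months with only those ages, and leaving out each library gave 5 to 5 calls. From 6 to 9 months that range was 4 to 5, and from 3 to 6 and 9 to 12 months 0 to 0. With the oviduct and hilum covariate, added after seeing the data, the calls were 1 from 3 to 12 months, 3 from 6 to 9 months and 0 in the trend. With the connective tissue covariate, also added later, they were 0 from 3 to 9 and from 6 to 9 months. The cause was not tested.

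Hdc, which was never called, changed sign from 3 to 12 months with the oviduct and hilum covariate (-0.042), from 3 to 9 months without 3 month replicate 4 (0.052, in a range of -0.38 to 0.052 over left-out libraries) and with the connective tissue covariate (0.10), and in the trend without 3 month replicate 3 (-0.014), without 12 month replicate 3 (-0.021, in a range up to 0.28) and with the oviduct and hilum covariate (-0.066). From 9 to 12 months Tpsb2 turned upward without 9 month replicate 2 (0.18, in a range from -0.37), without the 3 libraries with lymph node transcripts (0.28) and with the connective tissue covariate (0.47), which also turned Cpa3 (0.21) and Cma1 (0.33). Each tissue list's own covariate reversed Actg2 (-0.17, and -0.16 in the trend), Myh11 (-0.18 and -0.19) and Dcn (-0.0068 in the trend).

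Over all genes, calls from 3 to 6 months numbered 3 by edgeR, 47 by DESeq2, 0 by limma, 34 with only those ages and 8 without the lymph node libraries. From 9 to 12 months they were 0, and 252 by DESeq2 and up to 278 with 1 library left out (9 month replicate 5). From 3 to 12 months they ranged from 2124 (without 12 month replicate 3) to 3805. No paired analysis was possible because the labels carry no replicate numbers shared between ages. Fcer1a, Tpsab1 and Mrgprb1 were limited by depth.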
